A study of Homo sapiens with 60 samples.

Results

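This comparison asks which genes moved when doxorubicin was added to rapamycin in HB4a, a line of normal human breast epithelial cells. It rests on 10 of the 60 arrays of the series: 5 from HB4a cells given 20 nM rapamycin plus 30 nM doxorubicin, called the combination here, and 5 from HB4a cells given 20 nM rapamycin alone. The arrays were chosen by their labels alone, and all genes were examined. The series measured RNA on Affymetrix expression arrays in 3 breast lines under 4 conditions, and its stated subject is the response of mammary lines that overexpress HER-2 to the drug pair. HB4a is the line without added HER-2. A further 10 HB4a arrays, 5 with the DMSO vehicle and 5 with 30 nM doxorubicin alone, gave the doxorubicin effect without rapamycin. All 4 groups grew in the same medium, to which insulin and hydrocortisone had been added, and the time of exposure to the drugs is not given in the sources used here. The design states independent experiments for each condition. The labels number the arrays of each group 1, 2, 3, 4 and 6, and whether a number marks the same experiment in every group is not given in the sources used here. A single line and 5 arrays a group limit the precision.

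Doxorubicin, an anthracycline, locks topoisomerase II in its cleavage complex and so leaves breaks in DNA. Breaks stabilise the transcription factor p53, which switches on genes for cell cycle arrest, DNA repair and apoptosis, together with its own inhibitors MDM2 and PPM1D. Rapamycin inhibits mTORC1, the kinase complex that ties ribosome production, protein synthesis and glycolysis to nutrients and growth factors, and its inhibition releases the feedback that holds down the insulin receptor substrates IRS1 and IRS2.

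Levels are log2 expression values. Differences are combination minus rapamycin on that scale, given with limma's standard error after ± (n = 5 arrays per group). A gene rose or fell, or was called, where its adjusted p was under 0.05 over all genes tested, and genes entered the test when 5 or more of the 20 HB4a arrays had a log2 value over 5. A gene written as having risen or fallen kept its call without each of the 10 arrays in turn, unless the text says otherwise. The median probe set stood at 1.58 to 1.71 on each HB4a array. The HB4a arrays numbered 1 stood apart on the first principal component of the tested genes, which took 46.8% of the variance: rapamycin array 1 lay at -50.53 and combination array 1 at -27.51, against -17.90 to 2.32 and 4.21 to 18.73 for the others of each group. On rapamycin array 4 the 3′ GAPDH probe set exceeded the 5′ one by 1.67 log2 units, against 0.23 to 0.43 on the other rapamycin arrays and 0.25 to 0.54 on the combination arrays, a sign of shorter RNA or cDNA. For ACTB the array numbered 4 had the largest such difference in each HB4a group: vehicle 3.31, doxorubicin 2.98, rapamycin 4.10 and combination 3.02. The other rapamycin arrays lay at 1.47 to 2.66 and the other combination arrays at 1.47 to 2.73. Counts that moved by over 1.5 times without the arrays numbered 1 and rapamycin array 4 are given both ways. What part these features have in the results was not tested. The 6 epithelial markers (KRT7, KRT8, KRT18, KRT19, EPCAM and CDH1) passed log2 5 on all 10 arrays. Their mean level was 9.68 to 10.10 with rapamycin and 9.62 to 9.86 with the combination. Of the 15 leukocyte markers 13 had a value and 0 passed the filter, with mean levels of 1.53 to 1.80 and 1.56 to 1.86. Of the 7 basal markers keratin KRT5 (means 9.06 and 8.48) and CDH3 (8.23 and 8.46) were high, and ITGB4 stood at 5.71 and 5.52. ITGA6 was lower (3.55 and 3.68), KRT14 was near the floor in both groups (0.52 and 0.70), and KRT17 and TP63 had no value. Of 6 fibroblast markers 1 was tested, DCN (6.97 and 6.53), and of 10 endothelial markers 2.

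Adding doxorubicin to rapamycin changed 545 of the 6167 genes tested (8.84%), with 349 up (5.66%) and 196 down (3.18%). The secreted stress cytokine GDF15, the quinone oxidoreductase homologue TP53I3 and the cell cycle inhibitor CDKN1A led the rises by size or by p. The forkhead factor FOXQ1, the IL-33 receptor IL1RL1 and the cell cycle regulator RGCC fell most. The change reached 2-fold for 62 genes, 42 up and 20 down. The values of the 2 groups did not overlap for 378 genes tested (6.13%), among them 208 of those that rose and 115 of those that fell. Without the arrays that stood apart 659 genes were called, 424 of them among the 545, and without combination array 6 the count was 336. At an unadjusted p under 0.05 there were 1389 genes. Of the genes tested 97 had no array over log2 5 without doxorubicin, and 54 of them rose. A further 19 had none over log2 5 with doxorubicin, and 17 of them fell. These genes passed the filter through the higher groups alone, so their calls are no support for the counts, those of the gene lists below included. Of the genes below they include AKR1B10, NECTIN4, LAMP3, BLNK, ASTN2, IP6K3, SESN2, GINS4, TM7SF2 and ICAM1 among the rises and IRS1, FOXO1, WNT5A, FJX1, RIPOR2, STC2 and URB2 among the falls. In RNA from whole cultures, fewer cells of a state and less RNA per cell cannot be told apart.

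**Figure D1:**
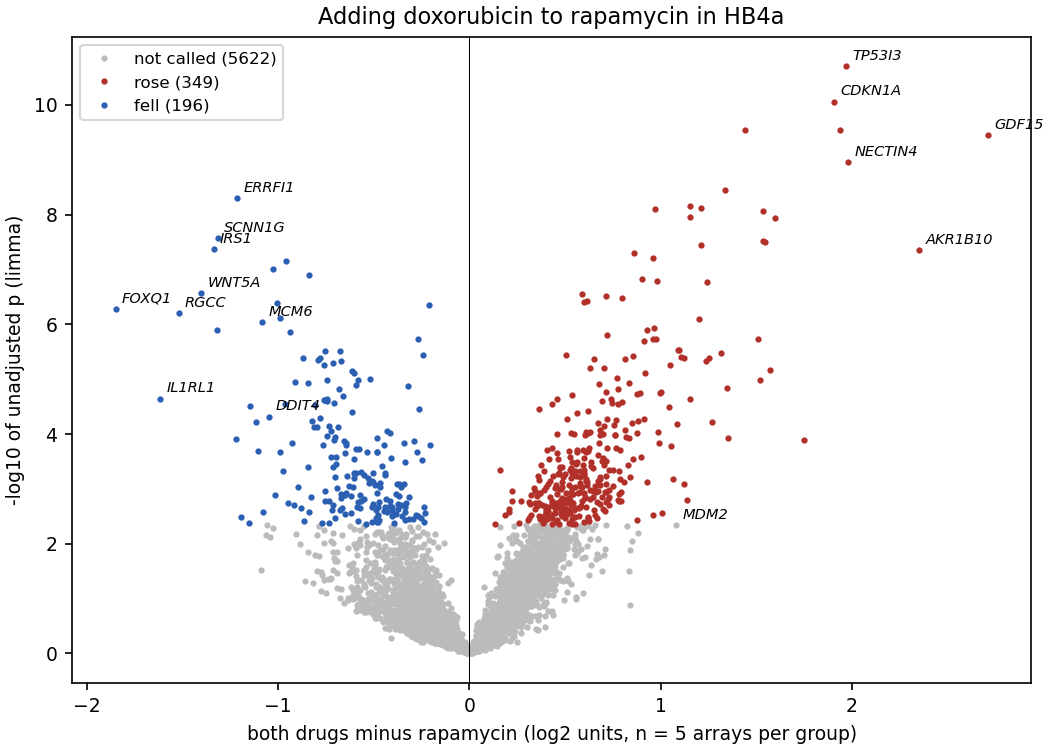
Combination (written as both drugs on the axis) minus rapamycin in log2 units (x axis) against the negative log10 of the unadjusted limma p (y axis) for each of the 6167 genes tested in HB4a, n = 5 arrays per group. Red points are the 349 genes that rose, blue the 196 that fell and grey those not called. GDF15 lies farthest right at 2.71 and FOXQ1 farthest left at -1.85.

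GDF15 stood at 6.84, 7.62, 6.82, 6.18 and 6.69 on rapamycin arrays 1, 2, 3, 4 and 6, and at 9.36, 9.85, 9.56, 9.45 and 9.46 on the combination arrays of the same numbers. The lowest combination array lay above the highest rapamycin array, and GDF15 rose by 2.71 ± 0.25 (6.54-fold, adjusted p = 4.33e-07). TP53I3 stood at 6.99, 7.55, 6.79, 6.80 and 7.26 with rapamycin and at 9.01, 9.19, 9.14, 8.87 and 9.01 with the combination. Again the groups were apart, with a rise of 1.97 ± 0.16 (3.91-fold, adjusted p = 1.21e-07), the smallest p of all genes. CDKN1A, which encodes the kinase inhibitor p21, stood at 7.47, 8.12, 7.73, 7.84 and 7.61 with rapamycin and at 9.42, 9.87, 9.68, 9.74 and 9.59 with the combination. Its rise was 1.91 ± 0.16 (3.75-fold, adjusted p = 2.67e-07), with no overlap.

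Outside the p53 lists the aldo-keto reductase AKR1B10, an enzyme that reduces carbonyls, rose most. It stood at 1.5, 3.08, 2.46, 3.02 and 2.54 with rapamycin, where array 1 lay under its array's median, and at 4.46, 5.68, 4.48, 4.93 and 4.81 with the combination (2.35 ± 0.29, adjusted p = 1.35e-05). The adhesion molecule NECTIN4 stood at 2.77 to 3.50 with rapamycin and 4.75 to 5.58 with the combination, and rose by 1.98 ± 0.19 (3.94-fold). The lysosomal membrane protein LAMP3 stood at 3.75 to 4.51 and 5.85 to 6.14, and rose by 1.94 ± 0.18 (3.83-fold). The adaptor BLNK (1.75 ± 0.38), the membrane protein ASTN2 (1.60 ± 0.18) and the inositol phosphate kinase IP6K3 (1.57 ± 0.27) also rose, and in each the 2 groups were apart. AKR1B10, NECTIN4, BLNK, ASTN2 and IP6K3 had means of 2.52 to 3.44 with rapamycin, low on this scale, and with LAMP3 passed the filter only through arrays with doxorubicin.

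Among the largest falls, FOXQ1 stood at 6.76, 7.25, 6.47, 6.80 and 7.12 with rapamycin and at 4.89, 5.13, 5.21, 4.70 and 5.22 with the combination. The groups were far apart, and FOXQ1 fell by 1.85 ± 0.26 (3.60-fold lower, adjusted p = 8.75e-05). IL1RL1 (-1.62 ± 0.30), RGCC (-1.52 ± 0.22) and the Wnt ligand WNT5A (-1.40 ± 0.19) followed. The four-jointed homologue FJX1 (-1.32 ± 0.20), the RhoA inhibitor RIPOR2 (-1.15 ± 0.22) and the Eph receptor ligand EFNB2 (-1.12 ± 0.22) fell too. In all of these falls every combination array lay below every rapamycin array. Their combination means lay between 3.67 (RIPOR2) and 5.95 (EFNB2).

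**Figure D2:**
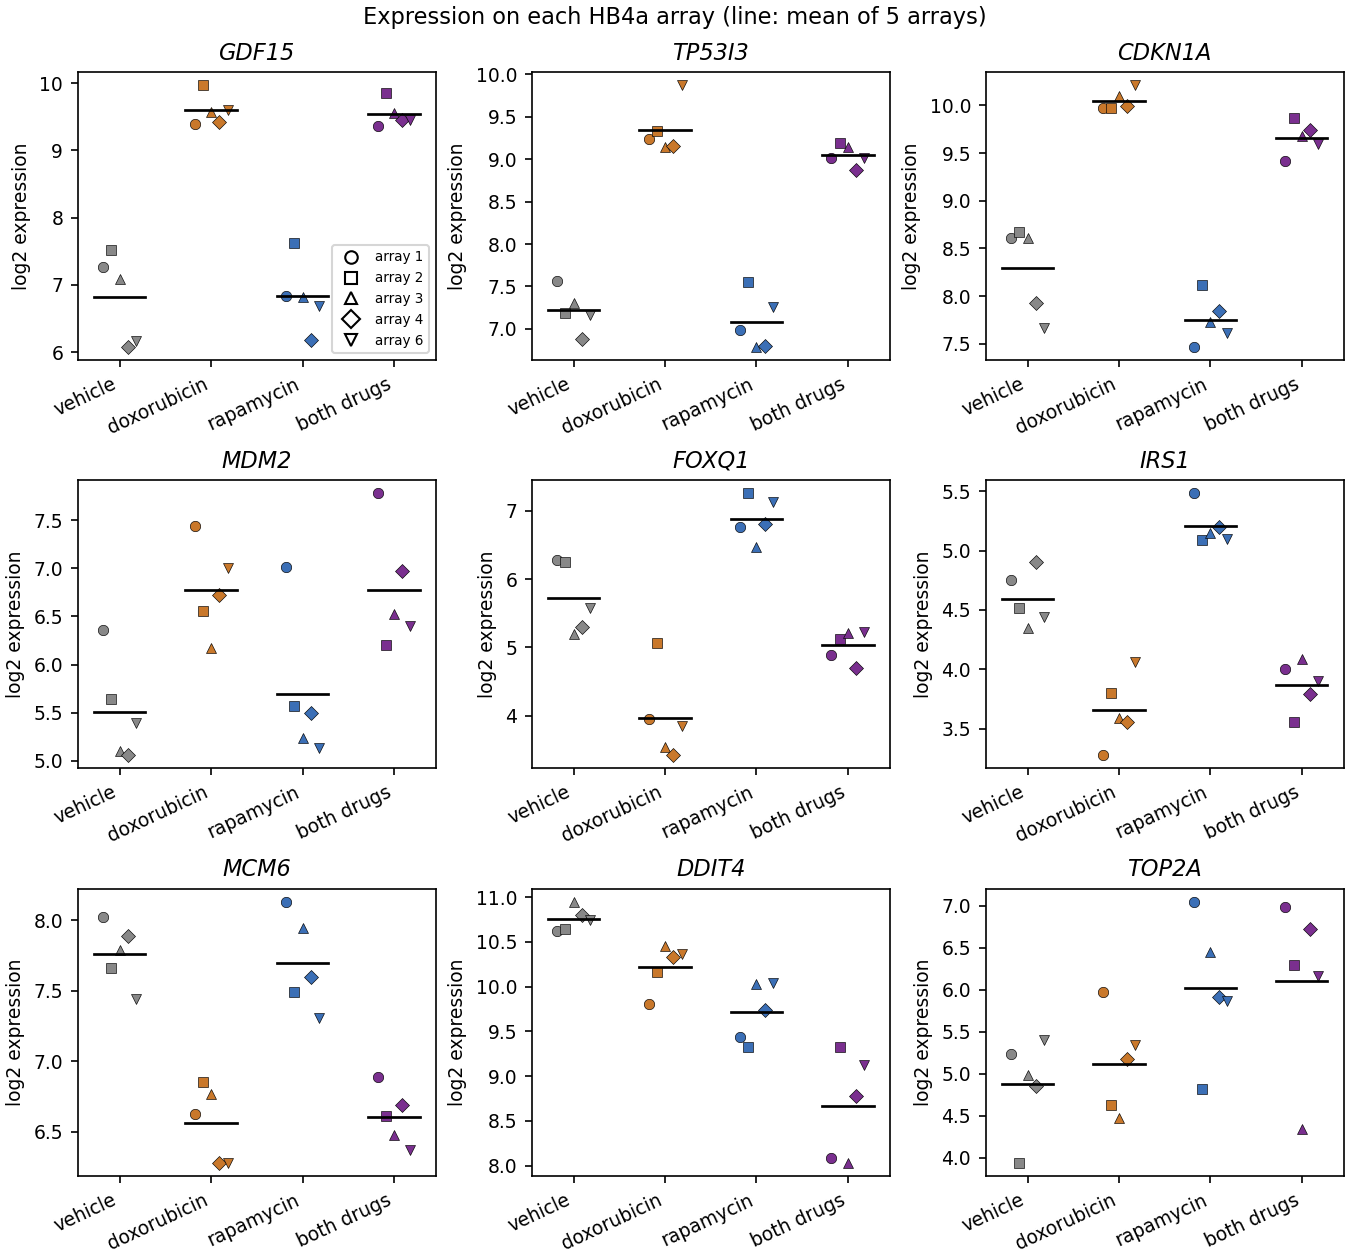
Log2 expression (y axis) of 9 genes on each HB4a array in the vehicle, doxorubicin, rapamycin and combination groups (x axis), with the marker shape giving the array number and the line the mean of 5 arrays. GDF15, TP53I3 and CDKN1A are high on all 10 arrays with doxorubicin, whether or not rapamycin was present. For MDM2, rapamycin array 1 (7.02) lies among the combination arrays.

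Of 44 p53 targets in 5 lists 40 had a value and 31 were tested. Of these 19 rose and 0 fell, against 5.66% and 3.18% of all genes tested, and 30 of the 31 lay above 0. The median over the 31 was 0.80, against 0.03 over all genes tested. Without the arrays that stood apart 20 rose and 0 fell. The arrest genes were led by CDKN1A, and the sestrins SESN1 (1.12 ± 0.29) and SESN2 (1.10 ± 0.18), which restrain mTORC1, rose with it. SESN2 passed the filter only through arrays with doxorubicin. The 14-3-3 protein SFN rose by 0.47 ± 0.13, a call lost without rapamycin arrays 1 or 3 or combination arrays 3 or 6 (range 0.35 to 0.59). GADD45A (0.21 ± 0.11, adjusted p = 0.243), PLK2 (0.31 ± 0.18), CCNG1 (0.56 ± 0.32) and ZMAT3 (0.36 ± 0.39) were not called.

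Of 11 tested p53 targets that act in apoptosis 7 rose (63.6%, against 5.66% of all genes tested). Besides TP53I3, the WAVE complex subunit CYFIP2 rose by 1.54 ± 0.18 and stood at 5.47 to 6.44 with rapamycin and at 7.22 to 7.85 with the combination. The pore-forming BAX rose by 0.97 ± 0.11, the nuclease AEN by 1.05 ± 0.17 and the AKT repressor PHLDA3 by 0.92 ± 0.16. The TRAIL death receptors TNFRSF10B (0.90 ± 0.12) and TNFRSF10A (0.62 ± 0.13) rose as well. In all 7 the groups were apart, as they were for 6.13% of all genes tested and for 208 of the 349 genes that rose. The death receptor FAS was 0.88 ± 0.29 (adjusted p = 0.064) and PMAIP1, which encodes NOXA, 0.23 ± 0.32, neither called. FAS was called without rapamycin array 1 or combination array 3 (range 0.73 to 1.11).

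Of 7 tested p53 targets in repair and metabolism 6 rose (85.7%, against 5.66% of all genes tested), and 2 with only the 10 arrays compared in the fit. The damage sensors of nucleotide excision repair DDB2 (1.21 ± 0.13) and XPC (0.80 ± 0.11) had groups that were apart: DDB2 stood at 6.27 to 6.66 with rapamycin and 7.40 to 7.88 with the combination, and XPC at 6.11 to 6.46 and 6.92 to 7.22. The autophagy modulator DRAM1 rose by 0.63 ± 0.14. The calls of the translesion polymerase POLH (0.61 ± 0.16), of the ribosomal protein homologue RPS27L (0.71 ± 0.20) and of the F-box protein FBXO22 (0.57 ± 0.15) each depended on single arrays. POLH was not called without rapamycin array 1 or combination array 6 (range 0.53 to 0.71), nor FBXO22 without rapamycin arrays 3 or 4 or combination array 3 (0.48 to 0.66). RPS27L was not called without rapamycin arrays 2, 3, 4 or 6 or combination array 1 (0.58 to 0.89).

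Of the genes that feed back on p53, the phosphatase PPM1D rose. It stood at 4.87, 4.19, 4.31, 4.06 and 4.13 with rapamycin and at 5.91, 5.80, 5.18, 5.55 and 5.38 with the combination, with no overlap (1.25 ± 0.20, adjusted p = 0.000398). MDM2, the ubiquitin ligase of p53, stood at 7.02, 5.57, 5.24, 5.50 and 5.13 with rapamycin and at 7.78, 6.20, 6.53, 6.97 and 6.40 with the combination. The groups overlapped through rapamycin array 1, and the difference of 1.08 ± 0.34 (95% interval 0.37 to 1.79, adjusted p = 0.0512) missed the threshold. Without rapamycin array 1 it was 1.41 ± 0.29 (adjusted p = 0.0039) and without combination array 2 it was 1.23 ± 0.36 (adjusted p = 0.0442), both called. It was also called with quantile normalization (adjusted p = 0.0482), array weights (1.37, adjusted p = 8.49e-05), all 60 arrays in the fit (adjusted p = 0.0285) and without the arrays that stood apart (1.21, adjusted p = 0.00114). A further MDM2 probe set differed by 1.08.

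**Figure D3:**
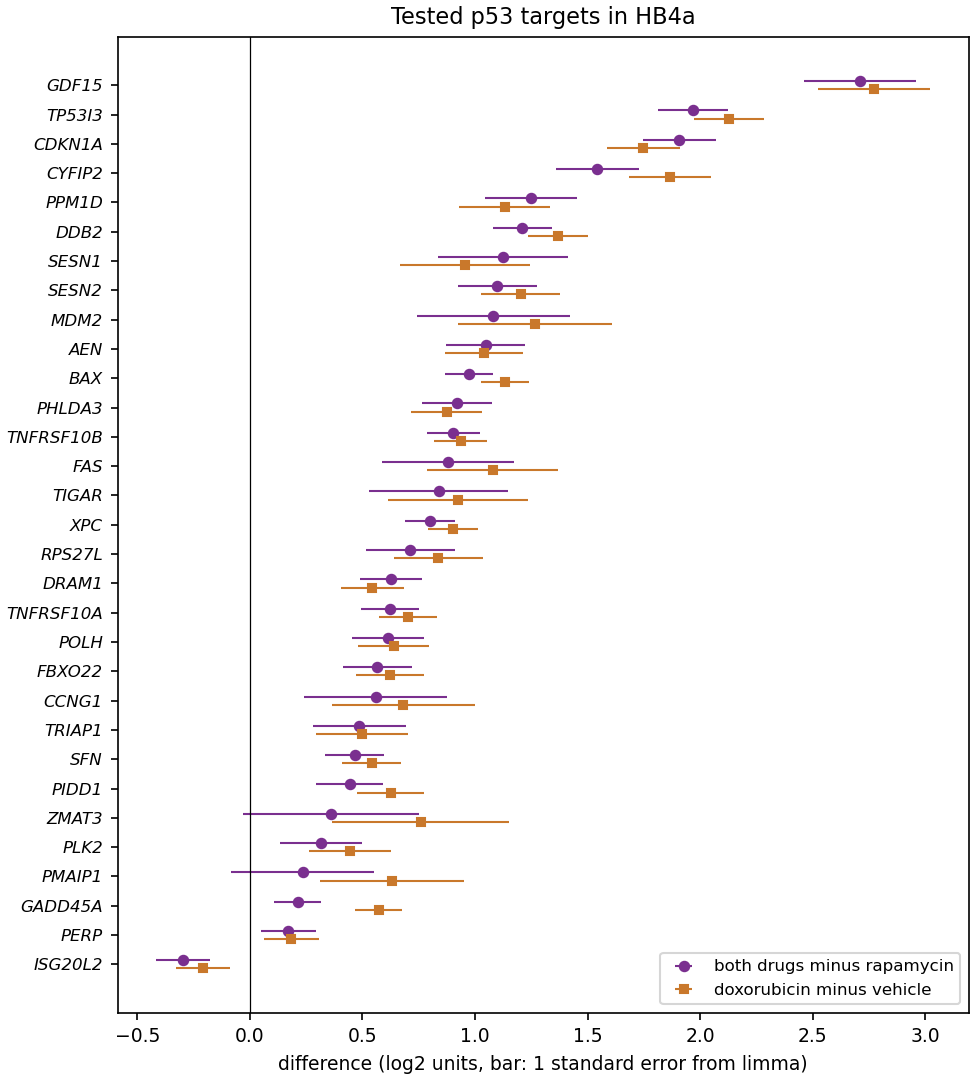
Difference in log2 units (x axis) for each of the 31 tested p53 targets (y axis), as combination minus rapamycin (circles) and doxorubicin minus vehicle (squares), with bars of 1 standard error from limma and n = 5 arrays per group. Of the 31 targets 30 lie above 0 with rapamycin present, from PERP at 0.17 to GDF15 at 2.71, and ISG20L2 lies at -0.30.

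Because the p53 targets moved together, their promoters were read from RefSeq (GRCh38.p14, 250 bases before to 50 after each start). They were searched along each gene's strand for the p53 response element, whose consensus reads the same on both strands. It was taken as a pair of adjacent 10-base half-sites with the core C and G of each in place and at most 3 mismatches elsewhere. A match stood in 1.37% of 27305 genes with a promoter and 1.62% of 5182 tested genes. It stood in 6.48% of 293 genes that rose and 1.90% of 158 that fell. Of the p53 targets that rose 5 of 15 with a promoter held one, as did 3 of 11 tested targets not called. The matches of DDB2 (chr11:47214969-47214988, plus strand), AEN (chr15:88621306-88621325, plus strand), GDF15 (chr19:18386186-18386205, plus strand), SESN1 (chr6:109009018-109009037, minus strand) and RPS27L (chr15:63157527-63157546, minus strand) are shown because these are the targets that rose with a match. That of MDM2 (chr12:68808923-68808942, plus strand) is shown beside them as the feedback gene that was not called. Each is written along its gene's strand with the 4 core bases in capitals.
DDB2: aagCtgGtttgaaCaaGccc
AEN: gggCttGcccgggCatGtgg
GDF15: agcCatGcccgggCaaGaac
SESN1: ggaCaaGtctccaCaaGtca
RPS27L: ggcCtaGagcagaCaaGccc
MDM2: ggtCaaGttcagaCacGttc
DDB2 has 1 mismatch, AEN and MDM2 have 2, and GDF15, SESN1 and RPS27L have 3. A match is a description of letters, and binding was not measured.

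A single match lay in the windows of a pair of neighbouring genes. Of the 19 genes that rose with a match, only the p53 targets above and ACTA2 are shown. ACTA2 is outside the p53 lists and was chosen after its values were seen. FAS and the smooth muscle actin gene ACTA2 lie head to head on chromosome 10, and the windows of both hold the same 20 bases, chr10:88991309-88991328, which read as follows along each gene.
FAS: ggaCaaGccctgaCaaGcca
ACTA2: tggCttGtcagggCttGtcc
ACTA2 stood at 6.64, 6.58, 6.61, 6.37 and 6.92 with rapamycin and at 8.02, 8.28, 8.14, 7.97 and 8.39 with the combination. The groups were far apart and ACTA2 rose by 1.54 ± 0.17 (2.90-fold, adjusted p = 4.48e-06). FAS stood at 5.33, 4.11, 4.59, 3.84 and 4.23 with rapamycin and at 5.85, 5.78, 4.64, 5.47 and 4.76 with the combination, and these groups overlapped. ACTA2 was the 1 member to rise among 8 tested genes of the contractile apparatus of smooth muscle (12.5%, against 5.66% of all genes tested). A further 1 fell (12.5%, against 3.18%). Tropomyosin TPM1 fell by 0.49 ± 0.13, a call lost without combination arrays 2 or 6 (range -0.55 to -0.43) or without the arrays that stood apart, and the list's median was -0.10.

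The target of doxorubicin itself, TOP2A, was not called. It stood at 7.05, 4.82, 6.45, 5.92 and 5.87 with rapamycin and at 6.99, 6.30, 4.34, 6.73 and 6.17 with the combination. Both groups spread over more than 2 log2 units, the difference was 0.08 ± 0.44 (95% interval -0.82 to 0.99), and its sign turned without rapamycin array 2 (-0.22), combination array 1 (-0.14) or combination array 4 (-0.07). Of 5 tested topoisomerases and adduct repair enzymes 0 were called, and of 7 tested genes of double-strand break repair and damage signalling 0 were called. At 8 tested genes of anthracycline efflux and reduction, AKR1B10 alone rose (12.5%, against 5.66% of all genes tested). The drug exporter ABCG2 was -0.76 ± 0.25 (adjusted p = 0.058), called without rapamycin array 6 or combination arrays 1 or 3 (range -0.89 to -0.64). TOP2B and MTOR did not pass the filter.

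Genes of DNA replication and nucleotide supply moved both ways: 5 of 36 tested rose (13.9%, against 5.66% of all genes tested), 3 fell (8.33%, against 3.18%) and the median was 0.04. The helicase subunit MCM6 stood at 8.13, 7.49, 7.94, 7.60 and 7.31 with rapamycin and at 6.89, 6.61, 6.48, 6.69 and 6.37 with the combination. The groups were apart and MCM6 fell by 1.08 ± 0.16 (2.12-fold lower, adjusted p = 0.000138). Other subunits of the helicase core, MCM2, MCM3, MCM4, MCM5 and MCM7, lay between -0.39 and -0.22 and were not called, but MCM3 was called without rapamycin array 4 (range -0.33 to -0.24) and MCM5 without rapamycin array 1 (-0.49 to -0.31). The uracil glycosylase UNG fell by 0.65 ± 0.14. Thymidylate synthase TYMS rose by 0.60 ± 0.08, with 8.87 to 9.25 on rapamycin arrays and 9.57 to 9.74 on combination arrays. The GINS subunit GINS4 (0.74 ± 0.14) and the origin subunit ORC6 (0.50 ± 0.12) rose. GINS4 passed the filter only through arrays with doxorubicin. The calls of POLA2, TK1 and the histone mRNA binder SLBP were each lost without some single arrays, and the count of rises was 3 without rapamycin array 1 or combination array 6, 2 with only the 10 arrays compared in the fit and 9 with array weights. The count of falls was 5 without the arrays that stood apart and 6 with arrays centred on their medians and 7 with array weights.

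Of 27 tested genes of G2 and mitosis 2 rose (7.41%, near the 5.66% of all genes tested) and 0 fell, with a median of 0.07. The ubiquitin-conjugating enzyme UBE2C, which serves the anaphase-promoting complex, rose by 0.51 ± 0.08, with 10.53 to 10.79 on rapamycin arrays and 10.98 to 11.29 on combination arrays. Securin PTTG1 rose by 0.22 ± 0.06, a call lost without rapamycin arrays 1 or 3 or combination arrays 4 or 6 (range 0.19 to 0.26). Of 2 tested replication-type histone genes H2BC12 fell by 0.75 ± 0.20, a call lost without rapamycin array 4 (range -0.84 to -0.61).

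Ribosome biogenesis and RNA polymerase I genes lay low as a group. Of 30 tested 0 rose and 6 fell (20.0%, against 3.18% of all genes tested), 29 lay below 0 and the median was -0.41, against 0.03 over all genes tested. The nucleolar protein NOP16 stood at 7.90, 8.24, 7.77, 8.0 and 7.94 with rapamycin and at 7.13, 7.01, 7.24, 7.15 and 7.11 with the combination. The groups were apart and NOP16 fell by 0.84 ± 0.11 (adjusted p = 3.05e-05). The Cajal body and nucleolar phosphoprotein NOLC1 (-0.80 ± 0.16), the polymerase subunit POLR1G (-0.70 ± 0.17) and the assembly factor RRS1 (-0.54 ± 0.12) fell too. The calls of URB2 (-0.49 ± 0.13) and UTP4 (-0.37 ± 0.11) were lost without combination arrays 2 or 6, and that of UTP4 also without rapamycin arrays 2 or 4 or combination array 1. URB2 passed the filter only through arrays without doxorubicin. The count of falls was 9 without the arrays that stood apart, 12 without combination array 1, and it rose to 11 with arrays centred on their medians and 12 with quantile normalization. It was 18 with array weights and 15 with all 60 arrays in the fit. Nucleolin NCL (-0.71) and the snoRNP protein NOP58 (-0.78) were not called. NCL was called without combination array 1 (-0.94) or without the arrays that stood apart (-0.69, adjusted p = 0.00567), and NOP58 without combination array 1 (-0.98). The 6-base motif CACGTG, which MYC and related factors can bind and which reads the same on both strands, stood in the promoters of 13.4% of 5182 tested genes, 9.22% of 293 that rose and 23.4% of 158 that fell. Among members of this list with a promoter in the table, it stood in 2 of 3 that fell and in 8 of 21 tested and not called.

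Insulin signalling genes were among the falls. Of 14 tested FOXO targets and insulin signalling genes 0 rose and 6 fell (42.9%, against 3.18% of all genes tested), with a median of -0.45. Of the 6, IRS1 and FOXO1 passed the filter only through arrays without doxorubicin, so their calls are no support for this count. IRS1, which docks the insulin receptor to PI3K, stood at 5.48, 5.09, 5.15, 5.2 and 5.10 with rapamycin and at 4.0, 3.56, 4.09, 3.79 and 3.90 with the combination. The groups were more than 1 log2 unit apart, and IRS1 fell by 1.34 ± 0.16 (2.53-fold lower, adjusted p = 1.35e-05). IRS2 stood at 8.95, 8.55, 8.90, 8.92 and 8.89 with rapamycin and at 8.35, 8.03, 8.03, 8.34 and 8.09 with the combination, and fell by 0.68 ± 0.11 (adjusted p = 0.000345). With all 60 arrays in the fit IRS2 was not called (adjusted p = 0.107). The pseudokinase TRIB1 (-0.99 ± 0.22) and the transcription factor FOXO1 (-0.85 ± 0.20) fell. The repressor BCL6 (-0.95 ± 0.27) lost its call without rapamycin arrays 3, 4 or 6 or combination array 3 (range -1.12 to -0.81), and KLF6 (-0.63 ± 0.16) without combination arrays 3 or 6 (-0.72 to -0.56). When the mean of all probe sets stood for a gene, 1 member fell, but that setting tested 3598 genes in all, against 6167.

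DDIT4, an inhibitor of mTORC1 that stress and glucocorticoids induce, fell as well. It stood at 9.44, 9.33, 10.03, 9.74 and 10.04 with rapamycin and at 8.09, 9.33, 8.03, 8.78 and 9.13 with the combination. Combination array 2 lay just under rapamycin array 2, both written 9.33, and the fall was 1.05 ± 0.21 (2.06-fold lower, adjusted p = 0.00241). In glycolysis 3 of 19 tested genes fell (15.8%, against 3.18% of all genes tested), 0 rose and the median was -0.01. Hexokinase HK2 stood at 5.27 to 5.62 with rapamycin and 4.61 to 4.91 with the combination, groups that were apart, and fell by 0.67 ± 0.11. Enolase ENO1 (-0.31 ± 0.09) and lactate dehydrogenase LDHA (-0.23 ± 0.07) were called, ENO1 not without rapamycin arrays 2, 3 or 6 or combination array 4 (range -0.40 to -0.27) and LDHA not without rapamycin arrays 1 or 3 or combination arrays 3, 4 or 6 (-0.28 to -0.18). The count of falls was 1 without rapamycin array 3 or combination array 4. Of 14 hypoxia targets outside glycolysis 1 fell (7.14%, against 3.18% of all genes tested) and 1 rose (7.14%, near the 5.66% of all genes tested). DDIT4 fell, and the collagen hydroxylase P4HA2 rose by 0.42 ± 0.11, a call lost without combination array 6 (range 0.37 to 0.48) or without the arrays that stood apart.

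Genes that answer to glucocorticoids and govern sodium and water transport moved in both directions. The epithelial sodium channel subunit SCNN1G stood at 5.13, 5.38, 5.24, 5.48 and 5.72 with rapamycin and at 3.63, 4.0, 4.30, 4.04 and 4.42 with the combination. The groups were apart and SCNN1G fell by 1.32 ± 0.16 (2.49-fold lower, adjusted p = 1.12e-05). The kinase SGK1, which keeps that channel at the membrane, fell by 1.01 ± 0.14, with 9.51 to 10.01 on rapamycin arrays and 8.48 to 9.01 on combination arrays. Of 9 tested members 3 fell (33.3%, against 3.18% of all genes tested) and 2 rose (22.2%, against 5.66%). The glucocorticoid receptor chaperone FKBP5 (-0.71 ± 0.20), the water channel AQP3 (1.14 ± 0.32) and glutamine synthetase GLUL (0.36 ± 0.10) made up the calls, and each lost its call when any of 5 or 6 arrays was left out. With each array left out in turn FKBP5 lay between -0.86 and -0.57, AQP3 between 0.93 and 1.42 and GLUL between 0.28 and 0.42. The arrays were rapamycin arrays 1 and 3 and combination arrays 3 and 6 for all of them, with combination arrays 2 and 4 for FKBP5, combination array 4 for GLUL and rapamycin array 6 for AQP3. Without the arrays that stood apart AQP3 was 0.99 (adjusted p = 0.113).

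In growth factor signalling, ERRFI1, a feedback inhibitor of EGFR, stood at 9.06, 8.54, 8.95, 8.76 and 8.77 with rapamycin and at 8.01, 7.53, 7.40, 7.60 and 7.45 with the combination. The groups were apart, and it fell by 1.22 ± 0.13 (2.32-fold lower, adjusted p = 3.81e-06). Of the 21 tested genes of ERK feedback and the immediate-early response it was the 1 that fell (4.76%, against 3.18% of all genes tested), and 2 rose (9.52%, against 5.66%). Without the arrays that stood apart 2 fell and 1 rose. The EGFR ligands HBEGF (0.57 ± 0.17) and TGFA (0.56 ± 0.16) rose, HBEGF with a call lost without rapamycin arrays 1 or 3 or combination arrays 2, 3, 4 or 6 (range 0.49 to 0.67), and TGFA without rapamycin arrays 3, 4 or 6 or combination arrays 1 or 3 (0.46 to 0.66). EGFR itself was -0.40 ± 0.12 (adjusted p = 0.0361), a call lost without any of the 10 arrays but rapamycin array 4 and combination array 1 (range -0.49 to -0.35). A pair of further EGFR probe sets fell by 0.49 and 0.72. ERBB2, the gene of HER-2, was 0.13 ± 0.18 and not called, and without rapamycin array 1 it was -0.01.

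The ATF4 targets, genes of the amino acid and stress response, had 2 rises and 2 falls among 21 tested (9.52% each, against 5.66% and 3.18% of all genes tested), with a median of -0.13. The secreted hormone STC2 fell by 1.03 ± 0.13, with 4.92 to 5.29 on rapamycin arrays and 4.04 to 4.14 on combination arrays, and SESN2 rose as given above. STC2 passed the filter only through arrays without doxorubicin, and SESN2 only through arrays with it. The stress factor ATF3 (0.88 ± 0.27, adjusted p = 0.0432) stood at 6.35 to 7.96 with rapamycin and 7.66 to 8.46 with the combination. It lost its call without any of the 10 arrays but rapamycin array 4 and combination array 1 (range 0.68 to 1.08). CEBPB (-0.29 ± 0.09) lost its call without any but rapamycin array 1 and combination array 6 (-0.36 to -0.24).

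Of 8 tested interferon-stimulated genes 3 rose (37.5%, against 5.66% of all genes tested) and 0 fell, with a median of 0.66. The ubiquitin-like protein ISG15 stood at 6.21, 7.60, 6.42, 6.71 and 6.76 with rapamycin and at 7.66, 7.62, 8.48, 7.57 and 7.66 with the combination. Rapamycin array 2 and combination array 3 lay above the rest of their groups, and the rise was 1.06 ± 0.23 (adjusted p = 0.00566). The RNA sensor OAS3 followed with 0.93 ± 0.24, with 4.71 to 5.73 on rapamycin arrays and 5.77 to 6.64 on combination arrays, and was 0.77 ± 0.24 (adjusted p = 0.0555) without combination array 3. IRF1 (0.54 ± 0.17, adjusted p = 0.0499) lost its call without any of the 10 arrays but rapamycin array 2 and combination array 1. The count was 1 without combination array 3 or without the arrays that stood apart, 6 without rapamycin array 2 or combination array 1, and 5 with arrays centred on their medians. In the NF-kB list 3 of 9 tested genes rose (33.3%, against 5.66%) and 0 fell, with a median of 0.22. Of the 3, ICAM1 passed the filter only through arrays with doxorubicin. The urokinase PLAU rose by 1.24 ± 0.20 (with 4.81 to 5.86 on rapamycin arrays and 5.96 to 6.92 on combination arrays) and the adhesion molecule ICAM1 by 0.68 ± 0.17, both with groups that were apart. With the mean of all probe sets, which tested fewer genes (3598 in all), 1 member rose. The inhibitor NFKBIE (0.61 ± 0.17) lost its call without rapamycin arrays 1, 3 or 6 or combination arrays 3, 4 or 6 (range 0.50 to 0.73). Leukocyte markers, as given above, were near the floor in both groups.

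Of 7 tested genes of basal keratins and adhesion SFN rose (14.3%, against 5.66% of all genes tested), as given above, KRT5 fell (14.3%, against 3.18%) and the median was 0.22. The count of rises was 0 without the arrays that stood apart. The basal keratin KRT5 fell by 0.58 ± 0.13, with 8.60 to 9.37 on rapamycin arrays and 8.14 to 8.67 on combination arrays. Keratin KRT18 was -0.24 ± 0.07 (adjusted p = 0.0309), a call lost without rapamycin arrays 2, 3 or 6 or combination arrays 3, 4 or 6, and KRT19 was -0.40 and not called. Of 13 tested luminal markers KRT18 alone was called (7.69%, against the 3.18% of all genes tested that fell), and 4 were called as lower without the arrays that stood apart. Of 18 tested mesenchymal and matrix genes 4 fell (22.2%, against 3.18% of all genes tested) and 0 rose, with a median of -0.12. Thrombospondin THBS1 fell by 0.85 ± 0.15, with 8.86 to 9.43 on rapamycin arrays and 8.04 to 8.50 on combination arrays, and the transcription factor SNAI2 fell by 0.70 ± 0.17, with combination array 1 (7.08) inside the rapamycin range of 6.87 to 7.88. The smaller falls of TWIST1 (-0.49 ± 0.15) and TGFBI (-0.24 ± 0.07) brought the count to 4. Both lost their calls without rapamycin array 3, combination array 3 or combination array 6, and without the arrays that stood apart, which left a count of 2. The count was 3 without rapamycin arrays 4 or 6 or combination arrays 1, 2 or 4. Of 12 YAP targets tissue factor F3 alone was called (8.33%, against the 3.18% of all genes tested that fell). F3 was -0.88 ± 0.25 and lost its call without rapamycin arrays 1 or 3 or combination arrays 2, 4 or 6 (range -1.04 to -0.68).

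Lysosome and autophagy genes lay slightly above 0: 22 of 23 tested, with a median of 0.26. Of the 23 tested 2 rose (8.7%, against 5.66% of all genes tested) and 0 fell. The lysosomal sialidase NEU1 stood at 4.97, 5.82, 5.80, 5.46 and 5.98 with rapamycin and at 6.33, 6.74, 6.67, 6.76 and 7.04 with the combination. The groups were apart and NEU1 rose by 1.11 ± 0.18 (2.15-fold, adjusted p = 0.000398). The galactosidase GLA (0.51 ± 0.15) was the other called member, with a call lost without any of the 10 arrays but rapamycin arrays 4 and 6 and combination array 1. The count of rises was 5 without the arrays that stood apart. In cholesterol synthesis the sterol reductase TM7SF2 rose by 1.52 ± 0.27, with 3.38 to 4.81 on rapamycin arrays and 5.16 to 6.23 on combination arrays. TM7SF2 passed the filter only through arrays with doxorubicin. HSD17B7 (0.42 ± 0.11) was called, but not without rapamycin array 3 or combination arrays 3, 4 or 6 (range 0.37 to 0.46). TM7SF2 and HSD17B7 made up 16.7% of the tested cholesterol genes, against the 5.66% of all genes tested that rose. The other 10 of 12 tested cholesterol genes were not called, and of 8 tested genes of fatty acid synthesis 0 were called. Without the arrays that stood apart 1 gene of each of these lists was called as lower.

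**Figure D4:**
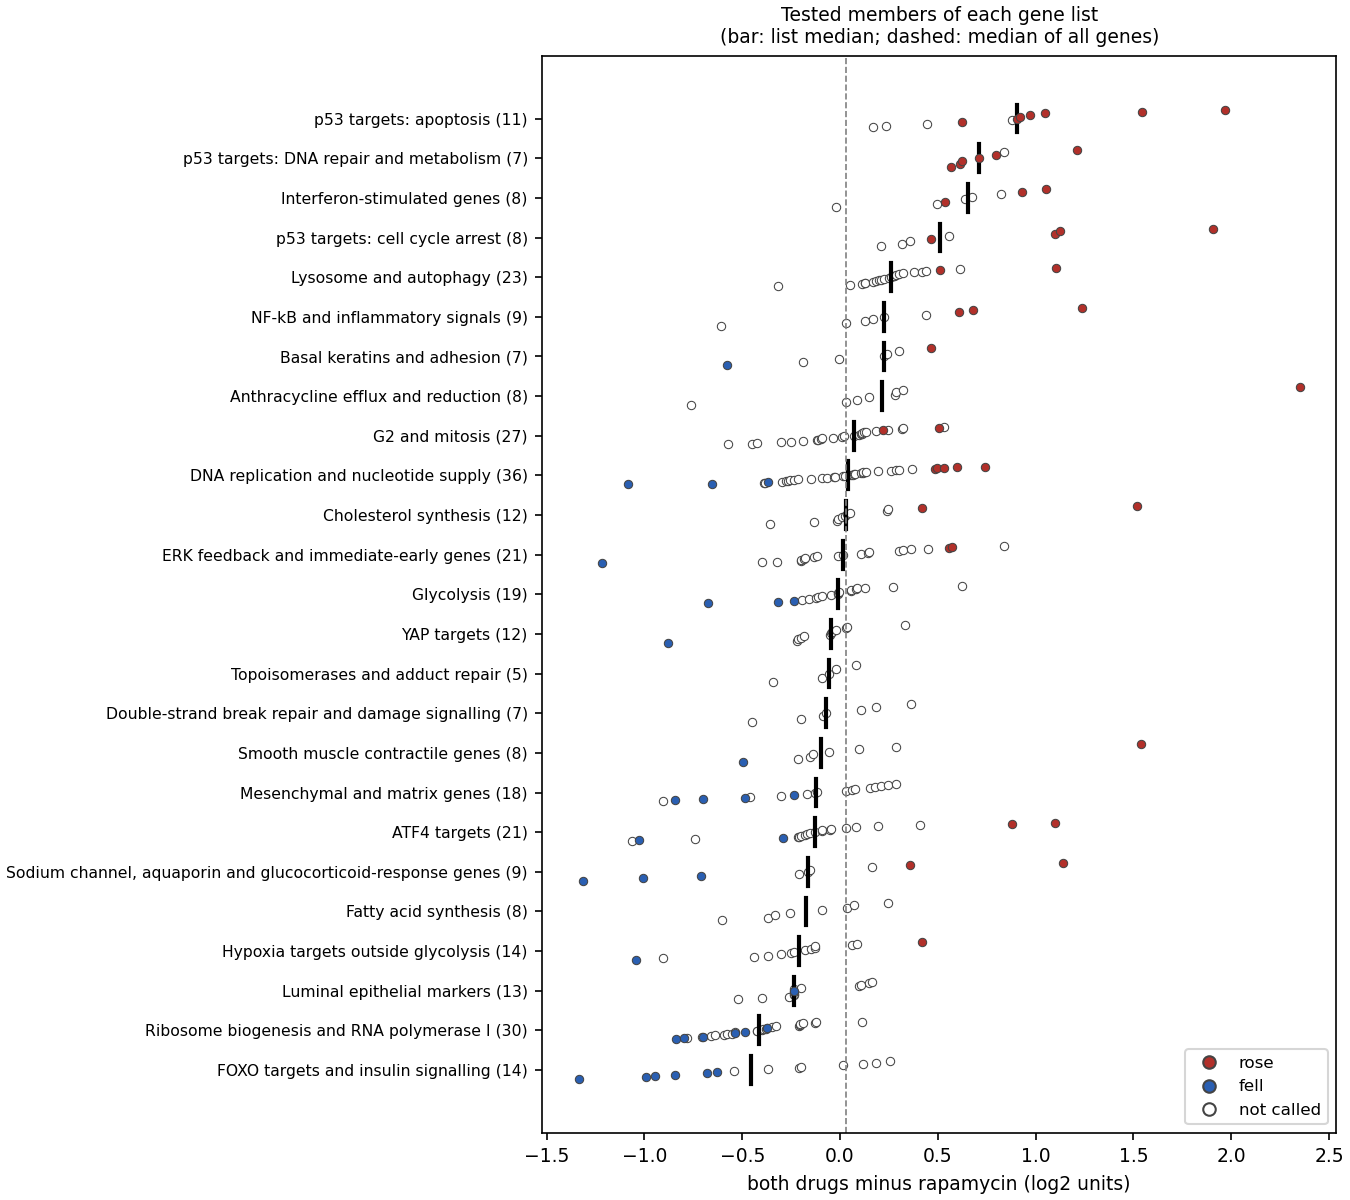
Combination minus rapamycin in log2 units (x axis) for each tested member of the gene lists with 5 or more tested members (y axis, number tested in brackets). Red points rose, blue fell and white were not called. The black bar is the list's median and the dashed line the median of all genes tested, 0.03. The p53 lists lie to the right and the FOXO and ribosome biogenesis lists to the left.

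The same drug step could be read without rapamycin, as doxorubicin against vehicle on 10 other arrays, which share no array with the main comparison but carry the same array numbers. There 705 of 6167 genes were called (11.4%), 534 up (8.66%) and 171 down (2.77%). Of the 545 genes called with rapamycin present, 419 (76.9%) were also called without it, and these were 59.4% of the 705. All 419 moved the same way, 295 up and 124 down. Of the 545 genes 544 had the same sign in both, the exception being the membrane mucin HEG1 (-0.36 and 0.01), named after its values were seen. Its call was lost when any of 6 arrays was left out (range -0.40 to -0.32). Across all 6167 genes, which are not independent replicates, 85.5% had the same sign, and the pair of differences had a Pearson r of 0.913 and a Spearman rho of 0.89. Leaving out vehicle array 1 gave 454 calls for doxorubicin against vehicle, vehicle array 3 gave 466, doxorubicin array 4 gave 452 and doxorubicin array 6 gave 436. Without the arrays that stood apart there were 1498.

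Side by side, GDF15 differed by 2.71 ± 0.25 with rapamycin and 2.77 ± 0.25 without it, TP53I3 by 1.97 ± 0.16 and 2.13 ± 0.16, and CDKN1A by 1.91 ± 0.16 and 1.75 ± 0.16. FOXQ1 differed by -1.85 ± 0.26 and -1.75 ± 0.26, and MCM6 by -1.08 ± 0.16 and -1.20 ± 0.16. Among the 31 tested p53 targets 19 rose with rapamycin and 23 without it. GADD45A was 0.21 ± 0.11 with rapamycin and 0.57 ± 0.11 (adjusted p = 0.0012) without it. DDIT4 was -1.05 ± 0.21 with rapamycin and -0.53 ± 0.21 (adjusted p = 0.109) without it. A call in 1 comparison and not in the other does not show that the effects differ, which a test of the difference itself has to answer.

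That test, the effect of doxorubicin with rapamycin minus its effect without, called 0 of 6167 genes with limma. At an unadjusted p under 0.05 there were 19 genes (0.308%, under the nominal 5%), and the smallest adjusted p was 1. In the unpaired fit the precision was limited. The median standard error of this difference was 0.21, against 0.15 for the main comparison. The median 95% interval reached 0.44 log2 units to each side. That fit leaves any spread that equal-number arrays share in its error, so these values may overstate the spread of the difference. How far they do was not tested. On simulated data the test recovered 67% of differences of 1 log2 unit and 17% of those of 0.5, so differences of 1 log2 unit and less could be missed. Since only 0.308% of genes here had an unadjusted p under 0.05, the recovery on these arrays may be lower than on simulated data. Among the 545 called genes the median size of the change was 0.60 and the median size of the difference between effects 0.11. SUGCT, a mitochondrial CoA transferase, rose by 1.44 ± 0.13 with rapamycin and 2.21 ± 0.13 without it, a difference of -0.78 (95% interval -1.16 to -0.39, unadjusted p = 0.000401, adjusted p = 1). In 2 genes, named after their values were seen, the difference was over 1 log2 unit in size. The steroid enzyme HSD3B1 was -1.11 ± 0.25 with rapamycin and -0.08 ± 0.25 without it (difference -1.03, 95% interval -1.76 to -0.30, adjusted p = 1). The immediate-early gene FOS was 0.84 ± 0.54 and -0.22 ± 0.54 (difference 1.06, 95% interval -0.52 to 2.64, adjusted p = 1). Neither difference passed the test, nor did those of RGCC (-0.72, 95% interval -1.36 to -0.07) and ATF3 (-0.88, 95% interval -1.67 to -0.09).

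**Figure D5:**
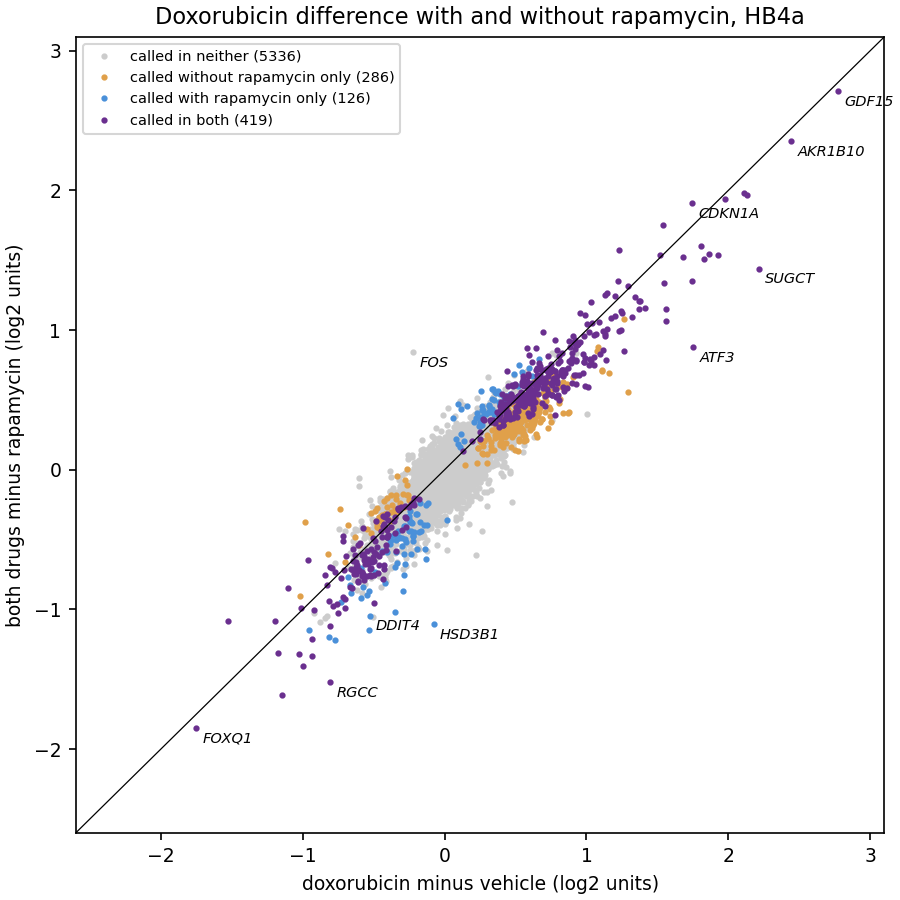
Doxorubicin minus vehicle (x axis) against combination minus rapamycin (y axis), both in log2 units, for the 6167 genes tested in HB4a, n = 5 arrays per group. Purple points were called in both comparisons (419), blue with rapamycin only (126), orange without rapamycin only (286) and grey in neither, and the line marks equal differences. Most called genes lie near the line, and SUGCT and ATF3 lie below it on the right.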

How the data were processed

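RNA of HB4a cells was hybridised to 1 array per sample. The authors deposited 1 log2 value per probe set and array, computed with RMA (version not stated) per the submitters' processing notes. The range of -0.60 to 13.08 was the basis for taking the log as base 2. Doses are in nM, following the sample names; the treatment protocol prints the unit as hM. The group labelled DRC was read as vehicle, since its source name gives DMSO.

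Of 54675 probe sets, 41091 carried 1 symbol in the platform's annotation, and 1801 with several, 11721 unnamed here and 62 controls were left out. Identifiers of 41037 matched RefSeq (GRCh38.p14), which gave current symbols and promoters. Each of 19775 genes was taken as its brightest probe set over 60 arrays. In 135 called genes with a further probe set past the filter, 178 of 178 such probe sets had the same sign, against 83.5% of 2236 over all tested genes. All value columns were mapped to samples.

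Group means were compared in R 4.3.3 with limma 3.58.1 (lmFit, eBayes with trend, 2-sided, Benjamini-Hochberg) on the 20 HB4a arrays, unpaired. Named genes were the 10 largest rises and falls whose groups did not overlap, up to 2 called members each way of a list with 3 or more calls, the 5 largest each way for doxorubicin alone, and CDKN1A, MDM2, GDF15, TOP2A, TOP2B, MTOR, IRS2, EGFR, ERBB2 and DDIT4. A further gene of the rule is not reported here. Other list members named were chosen after their values were seen. The comparison, the 31 gene lists (623 genes, 570 with a value, 362 tested) and the tests were chosen with earlier results of these data known. On simulated data the main test recovered 91% of 100 genes moved by 1 log2 unit and 51% at 0.5, with 3 unmoved genes called. On these arrays, where residuals of equal-number arrays correlated at up to 0.965, the recovery may differ. Alternatives were other filters, probe set rules, scalings, fits and arrays left out. Python 3.11.15, pandas 2.3.3, numpy 2.4.6 and matplotlib 3.10.9 made tables and plots.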

Additional observations from a re-analysis of the deposited data

Results flagged for a closer look

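Among 55 named genes and 3 measures of array quality (the GAPDH and ACTB probe set ratios and the array median), 116 groups of 5 arrays were examined for 1 array far from the other 4, and 6 held one. Chance gives about 1 in 20 groups, and these groups share arrays. MDM2 stood at 7.02 on rapamycin array 1, against 5.13 to 5.57 on the other rapamycin arrays. IRS1 stood at 5.48 on the same array, against 5.09 to 5.2. IRS2 stood at 8.55 on rapamycin array 2, against 8.89 to 8.95. ISG15 stood at 8.48 on combination array 3, against 7.57 to 7.66. SNAI2 stood at 7.08 on combination array 1, against 6.39 to 6.53. The 3′ GAPDH probe set exceeded the 5′ one by 1.67 on rapamycin array 4, against 0.23 to 0.43. Of these results only that of MDM2 crossed the threshold when the array was left out.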

How the results depend on the processing

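Counts of called genes depended on the fit. The 545 calls became 263 with a filter at log2 7, 363 with the mean of all probe sets, 1178 with array weights and 235 with only the arrays compared, all 235 among the 545. Leaving out each array in turn gave 336 to 788. For doxorubicin against vehicle the 705 calls became 311, 454 and 1873 under the first 3 of these settings, 1498 without the arrays that stood apart, and 436 to 948 without single arrays. The 78 called list members became 48 at log2 7, 134 with array weights, 44 with only the arrays compared, and 53 to 95 without single arrays. The difference between effects called 0 genes under every setting but the replicate block. Without single arrays TOP2A ranged from -0.22 to 0.52, with -0.14 and -0.07 among its values, and ERBB2 from -0.0099 to 0.22. Neither was called, and only their signs turned among named genes. Of the p53 targets 12 rose with a filter at log2 7, which tests fewer genes.

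Arrays were not paired by number, since not every equal-number pair deviated together. Residuals of combination and rapamycin arrays of equal number correlated at 0.965, -0.177, -0.569, 0.458 and 0.85 for numbers 1, 2, 3, 4 and 6. Combination array 2 correlated best with the arrays numbered 3 in each other HB4a group (0.545 to 0.625), and combination array 3 with those numbered 2 (0.679 to 0.881), a hint from the data and not the design. Combination arrays 1, 4 and 6 correlated best with their own number in each other group. The unpaired fit leaves any spread that arrays of 1 experiment share in its error. With the replicate block MDM2 was called (1.08, adjusted p = 0.000133), 22 ribosome biogenesis genes fell, and 1754 genes were called, 2014 for doxorubicin alone, 1 for the difference between effects and 161 list members. With the block and only the arrays compared, chosen after the data were seen, the counts were 1040 genes, 123 list members and 17 ribosome biogenesis genes.

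The arrays give no detection calls, so low values such as those of AKR1B10 with rapamycin carry an unknown background.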
